A study of Mus musculus with 5 samples.

Results

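The 6 connexin genes Gja1, Gja4, Gja5, Gjc1, Gjc3 and Gjb2 were followed across the cells of the mouse ovary. They were taken by name from the gene list of the deposited tables, which holds 31053 genes, 20 of them connexin genes, and all 6 were present in each of the 5 tables. The cells were live-sorted ovarian cells, freed with trypsin, of C57BL/6J mice labelled as not treated, at 2, 3, 4, 5 and 6 wk of age. Each age was 1 library of the 10x Genomics 3′ chemistry, and how many mice a library holds is not given in the sources used here. The values are UMI counts, the number of distinct RNA molecules of a gene in a cell. Levels are given as CPM, in which the UMIs of a gene are scaled to a total of 1000000 UMIs over the same cells.

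Connexins are membrane proteins that assemble into channels, and channels of neighbouring cells dock to form gap junctions, through which ions and small metabolites pass. In the follicle Gja1 makes the junctions between granulosa cells, and Gja4 is best known as the connexin that the oocyte brings to its junctions with them. Outside the follicle Gja4 and Gja5 are known from the endothelium of arteries, and Gjc1 from mural and smooth muscle cells. Gjc3 is known from myelinating glia and Gjb2 from epithelia such as those of the inner ear and the skin.

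In GRCm38 coordinates (GENCODE) Gja1 (ENSMUSG00000050953) lies at chr10:56377330-56402513 on the plus strand and Gja4 (ENSMUSG00000050234) at chr4:127311421-127314039 on the minus strand. Gja5 (ENSMUSG00000057123) lies at chr3:96904693-97077416 on the plus strand and Gjc1 (ENSMUSG00000034520) at chr11:102799579-102819700 on the minus strand. Gjc3 (ENSMUSG00000056966) lies at chr5:137953461-137963098 and Gjb2 (ENSMUSG00000046352) at chr14:57098600-57104702, both on the minus strand. All 6 are protein-coding genes. RefSeq promoters on GRCm38 were found for 5 of the 6 members, all but Gjc1. The 250 bases before the RefSeq start are shown for Gja1, the granulosa connexin, and for Gja4 and Gja5, the pair detected in the same endothelial cells. They run 5′ to 3′ on the strand of each gene, with motif matches in capitals. A RefSeq start can differ from the GENCODE start given above, and the window of Gja5 lies within the GENCODE span of the gene.
Gja1, chr10:56377050-56377299, plus strand: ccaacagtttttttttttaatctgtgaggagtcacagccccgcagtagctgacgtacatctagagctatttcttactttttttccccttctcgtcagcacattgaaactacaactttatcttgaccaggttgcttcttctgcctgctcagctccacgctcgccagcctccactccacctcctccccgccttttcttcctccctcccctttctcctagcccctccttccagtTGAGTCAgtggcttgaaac
Gja4, chr4:127314040-127314289, minus strand: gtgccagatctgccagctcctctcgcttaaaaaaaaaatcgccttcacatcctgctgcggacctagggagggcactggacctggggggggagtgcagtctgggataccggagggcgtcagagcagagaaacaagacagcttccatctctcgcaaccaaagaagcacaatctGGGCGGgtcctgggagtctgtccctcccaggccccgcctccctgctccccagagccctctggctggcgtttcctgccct
Gja5, chr3:97032152-97032401, plus strand: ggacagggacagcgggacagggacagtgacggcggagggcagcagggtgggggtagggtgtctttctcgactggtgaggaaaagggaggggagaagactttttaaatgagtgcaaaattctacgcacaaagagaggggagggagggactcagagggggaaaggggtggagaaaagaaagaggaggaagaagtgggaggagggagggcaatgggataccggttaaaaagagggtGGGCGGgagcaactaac
An AP-1 site was searched on both strands as TGAGTCA. The window of Gja1 held 1 match, marked in capitals, and the motif was found in 4.46% of 32851 promoters of the same length. The GC box bound by Sp1, searched on both strands as GGGCGG, was found in 32.7% of the promoters. The windows of Gja4 and Gja5 each held 1 such match, and that of Gjb2 held 2. A TATA box, searched on both strands as TATAAA, was found in 12.4% of the promoters and in none of the 5 windows, and the window of Gjc3 held none of the 3 motifs, which do not overlap one another.

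The 5 libraries held 48163 cells, between 7779 and 11077 per age, with totals of 93438618 to 144609431 UMIs and medians of 9056 to 12424 UMIs per cell. Of 47890 barcodes, 273 occurred in more than 1 library. Cells were clustered anew without the connexin genes, so that the clusters do not rest on the values below, and were named after marker genes. The named classes were granulosa-like (18085 cells), stromal-like (13779), smooth muscle-like (4117), theca-like (1414), pericyte-like (857), blood endothelial-like (712), hematopoietic-like (497), surface epithelial-like (322), lymphatic endothelial-like (232) and rete ovarii-like (93) cells, and 8055 cells stayed unnamed. Every marker of a class was detected in that class. Comparisons between cell groups sum the UMIs of a group in a library, take the 5 libraries as replicates and pair the groups within a library in edgeR. All groups of a kind enter 1 fit, with library as a term that takes up shifts common to a library. The p-values thus measure the spread of group differences between libraries of different age. This spread is estimated over all groups of the fit, not from the compared groups alone, and n gives the number of libraries. No test was possible between ages. A call means an adjusted p under 0.05 over all genes and at least a 2-fold difference, and intervals for single libraries cover counting error only.

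Gja1 had 417405 UMIs, in 73.7% of all cells. Gjc1 had 21648 UMIs in 26.4% of cells, Gja4 5076 UMIs in 2.81%, Gjc3 1110 UMIs in 1.93%, Gja5 144 UMIs in 0.114% and Gjb2 77 UMIs in 0.11%. Between classes, Gjc3 and Gjb2 were too sparse to be tested, and the other 4 members gave 15 calls in 28 tests. This count includes the calls of Gja5, which passed the low-count filter only through blood endothelial-like cells and was not called in DESeq2. It also includes the call of Gja4 between pericyte-like and smooth muscle-like cells. Gja4 passed that filter mainly through pericyte-like and endothelial-like cells, so the direction of this call was largely set beforehand. In the same 7 comparisons between 12.9% and 29.5% of all genes were called.

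**Figure D1:**
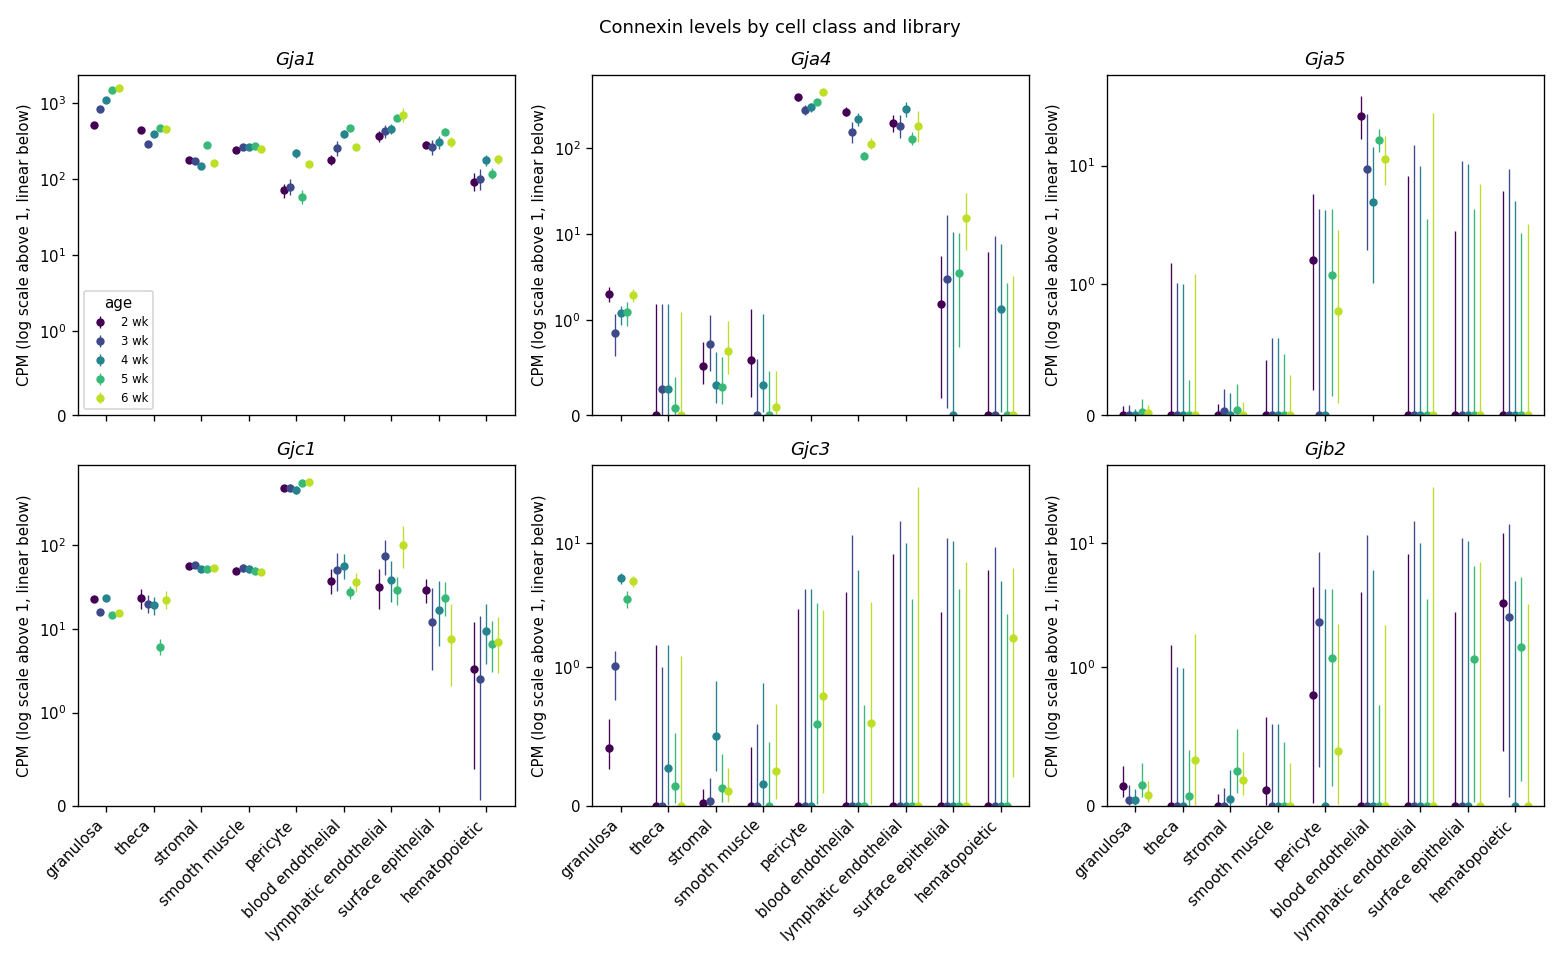
Level of each connexin (CPM, on a scale that is linear below 1 and logarithmic above) in each cell class, with 1 point per library and lines for the 95% counting interval. Gja1 is highest in the granulosa-like class (509 to 1543 CPM), Gja4 and Gjc1 in the pericyte-like class, and Gja5 is found in blood endothelial-like cells.

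Gja1 was highest in granulosa-like cells, with 509, 831, 1076, 1451 and 1543 CPM at 2, 3, 4, 5 and 6 wk. Stromal-like cells held 179, 169, 148, 275 and 159.5 CPM in the same order. The granulosa-like values all lay above the stromal-like ones, by 2.85-fold at 2 wk and 9.68-fold at 6 wk. In the comparison of these classes 3 of the 4 tested members were called, where 29.5% of all genes were called. The log2 difference of Gja1 was 2.35 ± 0.24 (SE, n = 5, edgeR, adjusted p = 1.75e-11).

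Lymphatic endothelial-like cells came next in Gja1, with 361, 425, 457, 637 and 694 CPM. The granulosa-like level was higher by 1.19 on the log2 scale (edgeR, adjusted p = 5.21e-05), and 30.9% of all genes were called between these classes. Theca-like cells held 442.5, 282, 387.5, 472 and 458 CPM, again all above the stromal-like range. Of the 4 members 2 were called between theca-like and stromal-like cells, against 20.8% of all genes, and Gja1 was higher by 1.12 ± 0.23 (log2, adjusted p = 8.48e-05 by edgeR). Below theca-like cells followed surface epithelial-like (313 ± 60.9 CPM, SD, n = 5), blood endothelial-like (309 ± 117), smooth muscle-like (254 ± 14.0) and stromal-like cells (186 ± 50.9). From lymphatic endothelial-like cells downward no class differed from the next by a call. The closest was theca-like over surface epithelial-like cells, with a log2 difference of 0.61 and an adjusted p of 0.033 (edgeR), which is under 2-fold.

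The lowest Gja1 levels were 132 ± 43.0 CPM in hematopoietic-like and 115 ± 67.6 CPM in pericyte-like cells (SD, n = 5). Per 100 UMIs of the 6 granulosa markers there were 20.4 UMIs of Gja1 in hematopoietic-like and 20.8 in pericyte-like cells, beside 18.3 in granulosa-like cells themselves. By library the ratio ranged from 8.33 to 32.0 in hematopoietic-like, from 11.1 to 28.6 in pericyte-like and from 10.1 to 27.7 in granulosa-like cells, and the part of free granulosa RNA in these levels was not tested. The ratio was 54.1 in theca-like, 62.2 in stromal-like, 74.2 in blood endothelial-like, 94.1 in smooth muscle-like and 104 in lymphatic endothelial-like cells. Without the 5 wk library that of blood endothelial-like cells was 42.0. Surface epithelial-like cells stood at 32.5, and their Gja1 was lower than that of granulosa-like cells by 1.85 ± 0.24 on the log2 scale (edgeR, adjusted p = 2.10e-08). Gja1 was the only member called there, where 28.8% of all genes were called. When each cell was thinned to 3000 UMIs, leaving out shallower cells, Gja1 was found in 95.5% of antral granulosa, 63.1% of lymphatic endothelial-like, 33.5% of stromal-like and 14.3% of hematopoietic-like cells. Without thinning the shares were 99.7%, 77.2%, 58.8% and 21.7%. The median depths of these cells were 14908, 7656, 9656 and 6619 UMIs, and 35, 37, 489 and 126 cells were left out. Over all granulosa-like cells the thinned share was 81.2%. In the primary group and that scored as primordial, described below, it was 57.4% and 47.8%, under that of lymphatic endothelial-like cells.

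Within the granulosa-like cells, clusters took the stage of the study's published cluster mean that they matched clearly (r of at least 0.7). Where no match was clear, they were grouped by markers of the follicle stages. The antral group (3315 cells) held Vpreb3 and Inhba clusters, and the remodeling group (2971 cells) was led by Spp1, S100a6, Adamts5 and Lox. The secondary group (4187 cells) joined a cluster that still carried the primary markers Igfbp5 and Wnt4 with 2 clusters led by DNA replication genes, so values of its clusters are given beside the comparisons it enters. The primary group held 2782 cells and the group scored as primordial 808 cells. The latter matched none of the compared study clusters clearly (highest r = 0.559). The study's own primordial cluster was not among those compared, so this group rests on markers alone.

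Gja1 was lower in the primary than in the secondary group and highest in the antral group. The primary group held 262, 370.2, 436, 455 and 367 CPM from 2 to 6 wk. The secondary group held 494, 769, 990.3, 1317 and 1360 CPM, above the primary group in all 5 libraries by 1.88- to 3.70-fold. The antral group held 1372, 1372, 1280, 2039 and 2152 CPM.

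None of the secondary values overlapped the primary ones, while the secondary and antral ranges overlapped. Gja1 was higher in the secondary than in the primary group by 1.4 ± 0.15 on the log2 scale (edgeR, adjusted p = 1.32e-08). In that comparison 3 of the 4 tested members were called, against 10% of all genes. Antral over secondary was higher in 5 of 5 libraries, by 0.86 ± 0.15 (edgeR, adjusted p = 4.50e-05), which is under 2-fold and therefore no call. By cluster, Gja1 was 341 and 347 CPM in the primary clusters, 537, 746 and 1258 CPM in the secondary clusters and 1312 and 2101 CPM in the antral clusters. The higher antral value belonged to the cluster led by Inhba, Cyp11a1 and Nppc. An unnamed cluster with Ntng1 and Nppc among its leading genes was higher still, at 2375 CPM.

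**Figure D2:**
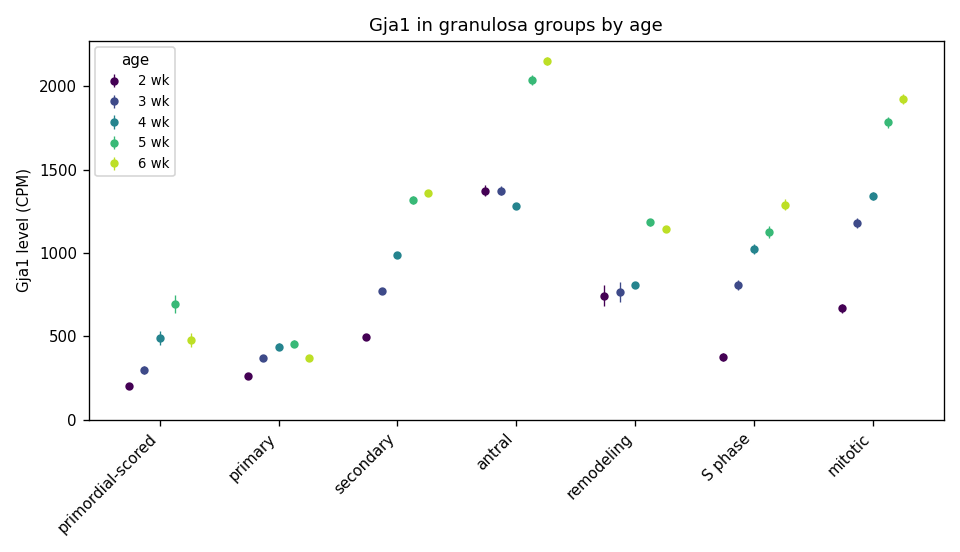
Gja1 level (CPM) in each granulosa group by age, with 1 point per library and lines for the 95% counting interval. The antral group is highest at 2, 3, 5 and 6 wk and just under the mitotic group at 4 wk, and the primary group stays between 262 and 455 CPM.

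The remodeling group, which takes its name from the study's term for early follicles that lose the oocyte, had 742, 764, 809, 1184 and 1143 CPM of Gja1. This was 0.531 to 0.632 times the antral level of the same library. The ranges did not overlap, and the log2 difference was -0.93 ± 0.15 (edgeR, adjusted p = 1.35e-05), again under 2-fold. No member was called between the remodeling and antral groups by edgeR or DESeq2, where 9.61% of all genes were called by edgeR, and 2 of the 4 members had an unadjusted p under 0.05. Against the secondary group the log2 difference of Gja1 was -0.07 ± 0.15 (adjusted p = 0.703 by edgeR).

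Mitotic cells held 668, 1179, 1342, 1783.5 and 1925 CPM of Gja1 and S phase cells 374, 807, 1023, 1125 and 1289.5 CPM. Mitotic over secondary differed by 0.47 (edgeR, adjusted p = 0.0164), under 2-fold. In that comparison none of the 4 members was called by edgeR or DESeq2, against 6.52% of all genes by edgeR, and 2 had an unadjusted p under 0.05. The group scored as primordial held 205, 297, 489, 694 and 478 CPM, a range that covered the primary group. The difference between these 2 groups was -0.07 on the log2 scale.

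In the mesenchyme the steroidogenic theca group (1488 cells), which carries Cyp11a1 and Cyp17a1, had the highest mean of Gja1, with 399, 241, 336.5, 433 and 363 CPM from 2 to 6 wk. It exceeded the mean of the other mesenchymal groups in 5 of 5 libraries, by 0.997 on the log2 scale, just under 2-fold (edgeR, adjusted p = 2.96e-10). The early theca group (1741 cells) was low, with 138, 116, 86.3, 158 and 86.3 CPM. None of its values reached those of the steroidogenic theca group, and against the other groups it lay 0.72 lower on the log2 scale (-0.72, edgeR adjusted p = 7.11e-05).

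The group marked by Col11a1 held 298, 247, 211, 367 and 219.8 CPM of Gja1, and contractile cells held 244, 267, 248, 272 and 233 CPM. Both were above the mean of the other groups, by 0.60 and 0.58 on the log2 scale (edgeR, adjusted p = 7.54e-05 and 4.87e-05), and neither reached 2-fold. When libraries were merged without integration, the Col11a1 group stood at -0.15. Of the 2 Col11a1 clusters, that led by the early response gene Nr4a3 held 362.5 CPM and the other 196 CPM. Cells in S phase lay lower than the mean of the other groups by 0.93 (-0.93, edgeR adjusted p = 4.94e-07), and at 0.08 when libraries were merged without integration. Of 20 tests in the mesenchyme, on Gja1 and Gjc1 in 10 groups, 1 was a call, that of Gjc1 in steroidogenic theca. A second call appeared without the 2 wk library (Gja1 in S phase cells, -1.13), without the 3 wk library (Gja1 in steroidogenic theca, 1.12) or without the 5 wk library (the same, 1.06). In the other 9 groups neither member was called by edgeR or by DESeq2, up to 2 of the 2 had an unadjusted p under 0.05, and edgeR called between 4.18% (early theca) and 14.4% (Col14a1) of all genes. The share was 5.22% in the Cxcl12, 5.65% in the Col11a1, 8.37% in the Cd24a and 9.2% in the Hoxd9 group, 10% in S phase, 10.1% in mitotic and 12.7% in contractile cells.

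**Figure D3:**
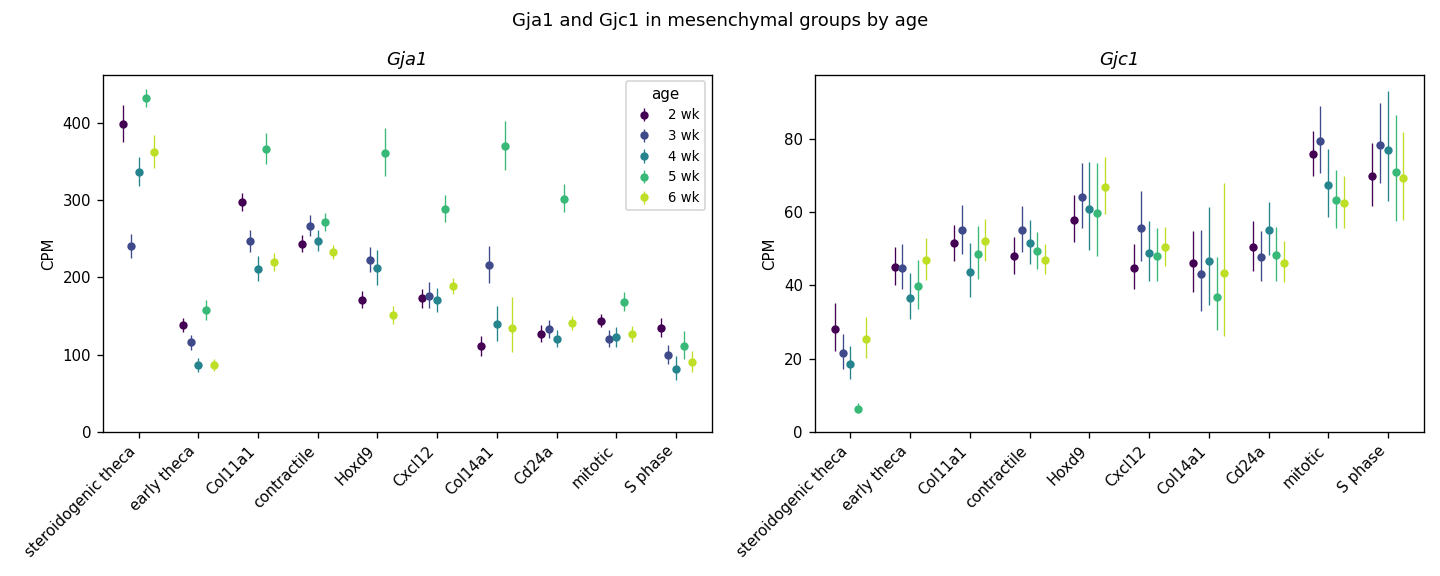
Levels of Gja1 and Gjc1 (CPM) in the mesenchymal groups, with 1 point per library and lines for the 95% counting interval. The steroidogenic theca group has the lowest Gjc1 at every age (6.28 to 28.0 CPM) and the highest Gja1 at every age but 3 wk.

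Across ages, Gja1 in granulosa-like cells was 1.63-fold (3 wk), 2.11-fold (4 wk), 2.85-fold (5 wk) and 3.03-fold (6 wk) its 2 wk level. The largest of these ratios had a counting interval of 2.99 to 3.07. The same comparison over the 3 libraries made with 1 version of Cell Ranger, 2 to 4 wk, gave the step to 2.11-fold (2.08 to 2.14). A change of version between 4 and 5 wk cannot be told apart from age.

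The secondary, mitotic and S phase groups had ratios near those of the class. In the secondary group Gja1 at 4, 5 and 6 wk was 2.00-, 2.67- and 2.75-fold that at 2 wk, in mitotic cells 2.01-, 2.67- and 2.88-fold and in S phase cells 2.73-, 3.01- and 3.44-fold. The group scored as primordial stood at 2.39-, 3.39- and 2.33-fold. In 3 groups the ratios were smaller. In the antral group the ratios were 0.932 (0.907 to 0.959) at 4 wk, 1.49 (1.44 to 1.53) at 5 wk and 1.57 at 6 wk. The primary group stood at 1.66-, 1.74- and 1.4-fold and the remodeling group at 1.09-, 1.59- and 1.54-fold. The antral group held 304 cells at 2 wk and 1152 at 4 wk, and the remodeling group 70 and 1240, so the mixture of stages in the class changed with age. Stage names here are those of clusters. The paper's whole-mount counts list no antral follicles in ovaries of about 2 wk, although its own comparison uses antral clusters at 2 wk. The antral ratios over 2 wk therefore need not compare follicles of the same stage.

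In several other classes the ratios over 2 wk were closer to 1. Smooth muscle-like cells stayed within 1.02 to 1.15, theca-like cells within 0.638 to 1.07 and lymphatic endothelial-like cells within 1.18 to 1.92. Pericyte-like cells varied without order, with 1.11, 3.06, 0.819 and 2.21 times the 2 wk level at 3, 4, 5 and 6 wk, on 57.5 to 215 CPM. Stromal-like cells stood at 1.54-fold at 5 wk and at 0.829 to 0.944 times the 2 wk level at the other ages. The 6 granulosa markers summed to 237 CPM in stromal-like cells at 5 wk and to 269 to 362 CPM at the other ages. Per 100 UMIs of these markers, granulosa-like cells held 10.1 UMIs of Gja1 at 2 wk and 27.7 at 5 wk. The part of free granulosa RNA in the stromal-like values was not tested.

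The 5 wk library stood apart in several mesenchymal groups. The Cd24a group held 127, 133, 120.3, 302 and 141 CPM of Gja1 from 2 to 6 wk, the Col14a1 group 111, 216, 139, 370.1 and 135.0 CPM and the Hoxd9 group 171, 222, 212, 361 and 151 CPM. In each of them the 5 wk value was the highest, at 2.38-fold (2.15 to 2.65), 3.35-fold (2.90 to 3.87) and 2.11-fold (1.89 to 2.35) that at 2 wk. The contractile, early theca and steroidogenic theca groups changed less from 2 to 5 wk, at 1.11-, 1.14- and 1.08-fold. Blood endothelial-like cells held 176, 251, 390, 467.5 and 261 CPM, with the highest level, 2.66-fold that at 2 wk, at 5 wk. With 1 library per age these values have no replicate.

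Gja4 belonged to the vessels. Pericyte-like cells, named after markers of the mural cells of small vessels, held 384, 275, 295, 340 and 443 CPM from 2 to 6 wk. Lymphatic endothelial-like cells held 192, 178, 279.5, 127 and 181 CPM and blood endothelial-like cells 263, 152, 214.5, 80.6 and 111 CPM. The ranges of the 2 endothelial classes overlapped, and the pericyte-like values lay above all endothelial ones except lymphatic endothelial-like cells at 4 wk.

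In all other classes Gja4 was at most 15.2 CPM, that value being surface epithelial-like cells at 6 wk. Pericyte-like over lymphatic endothelial-like cells differed by 1.01 on the log2 scale (edgeR, adjusted p = 0.000361, with 21.6% of all genes called). Lymphatic over blood endothelial-like cells differed by 0.25 (adjusted p = 0.563 by edgeR), which is no call. Blood endothelial-like over surface epithelial-like cells differed by 5.29 on the log2 scale, where 27.6% of all genes were called. Gja4 passed the low-count filter mainly through pericyte-like and endothelial-like cells, and surface epithelial-like cells had a median of 2.98 CPM. The direction of this difference was thus largely set beforehand, and no p is given for it. The 6 blood endothelial markers summed to 376 CPM in pericyte-like and 4152 CPM in blood endothelial-like cells, and none of them was at 0 in pericyte-like cells. Gja4 was higher in pericyte-like than in blood endothelial-like cells in all 5 libraries, with ranges that did not overlap (blood endothelial-like over pericyte-like, -1.26 ± 0.21 log2, edgeR adjusted p = 6.06e-06). The part of endothelial RNA in the pericyte-like values was not tested.

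Thinned to 3000 UMIs, Gja4 was found in 52.6% of pericyte-like, 32.8% of lymphatic endothelial-like and 21.2% of blood endothelial-like cells. Without thinning the shares were 67.7%, 49.6% and 23.3%. In hematopoietic-like cells, which should lack it, the share was 0.201% unthinned and 0 of 371 cells thinned. The median depths were 6830, 7656, 8932.5 and 6619 UMIs, and 134, 37, 189 and 126 cells were too shallow to be thinned.

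In blood endothelial-like cells, Gja4 marked a subset with arterial genes. Of 712 cells 166 had a UMI of Gja4. These cells held 2193 CPM of the 8 arterial genes, against 532.5 CPM in the other 546 cells, a ratio of 4.12 (3.94 to 4.30). By library the ratio was 5.36, 5.38, 2.11, 4.03 and 4.38, above 1 in each.

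Every arterial gene was higher in the cells with Gja4. The tyrosine kinase Bmx stood at 20.4-fold, the semaphorin Sema3g at 15.3-fold, the Notch target Hey1 at 13.2-fold and the elastic fibre gene Fbln5 at 7.13-fold. Efnb2, Sox17 and the Notch ligand Dll4 stood at 3.31-, 2.81- and 1.89-fold, and Unc5b at 4.86-fold. The 5 venous genes ran the other way, with 107 against 543 CPM, a ratio of 0.197 (0.172 to 0.225), or 0.297 without the 5 wk library. The venous selectin Selp had 0 UMIs in the cells with Gja4 and 1536 in the others, and Nr2f2, the factor of venous identity, was at 0.362 times the level. Ackr1 had 0 against 32 UMIs, and Lrg1 and Ephb4 were at 0.233 and 0.617 times the level. The venous ratio was under 1 in every library, from 0.0778 at 3 wk to 0.465 at 6 wk. Cells with Gja4 were deeper in 4 of 5 libraries, with medians of 10231 against 2711.5 UMIs at 2 wk, 5843 against 1978 at 3 wk, 6683.5 against 2330 at 4 wk and 10448.5 against 9489 at 6 wk. At 5 wk the medians were 15008 and 15763. The part of depth in the ratios was not tested, and at 5 wk the arterial ratio was 4.03 and the venous ratio 0.169.

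Gja1 was lower in the cells with Gja4, at 272 against 420 CPM, a ratio of 0.647 (0.590 to 0.707). These are splits of cells by a measured gene, given without a test. In lymphatic endothelial-like cells 115 of 232 had Gja4. In pericyte-like cells 580 of 857 had Gja4, and Gjc1 was found in 88.3% of them and in 69.3% of the rest, whose median depths were 7795 and 4568 UMIs. Whether depth set this difference was not tested.

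Over ages Gja4 in blood endothelial-like cells was 0.577, 0.815, 0.306 (0.260 to 0.360) and 0.422 times its 2 wk level at 3, 4, 5 and 6 wk. Pericyte-like cells stayed between 0.716 and 1.15 times. Blood endothelial-like cells numbered 118, 68, 100, 266 and 160 from 2 to 6 wk. Of these cells 30, 13, 28, 61 and 34 had Gja4.

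**Figure D4:**
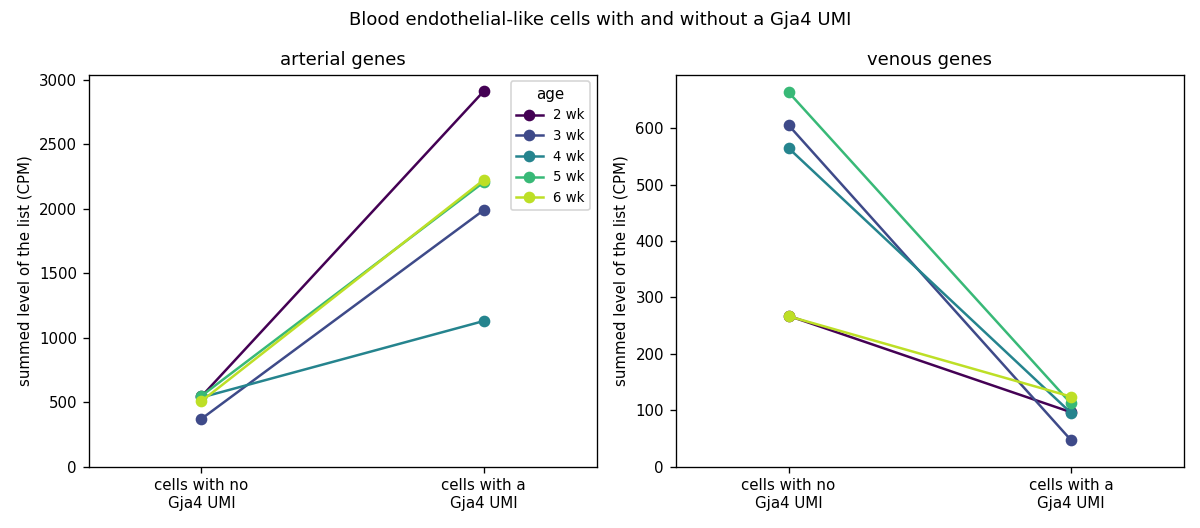
Summed level (CPM) of the 8 arterial and the 5 venous genes in blood endothelial-like cells without and with a UMI of Gja4, with 1 line per library joining its 2 points. In every library the arterial sum is higher (2.11- to 5.38-fold) and the venous sum lower (0.0778 to 0.465 times) in the cells with Gja4.

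Gja5, the second arterial connexin, was found almost entirely in blood endothelial-like cells, with 132 of its 144 UMIs. These cells held 26.2, 9.30, 4.91, 16.3 and 11.3 CPM, from 24, 3, 3, 83 and 19 UMIs. Lymphatic endothelial-like cells had 0 UMIs in all 5 libraries, which allows up to 1.33 CPM over all of them. Against a floor of 3 UMIs in the lymphatic cells, the blood endothelial-like level was at least 3.95-fold higher at 2 wk and at least 5.69-fold at 5 wk. At 3, 4 and 6 wk the floor lay above the blood endothelial-like level, so these libraries gave no bound.

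In edgeR Gja5 was the only one of the 4 tested members called between the endothelial classes, where 13.2% of all genes were called (adjusted p = 4.84e-05). Pericyte-like cells had 6 UMIs of Gja5. The blood endothelial-like level was 16.4-fold (4.08 to 144), 13.8-fold (3.69 to 116) and 14.3-fold (3.45 to 127) that of pericyte-like cells at 2, 5 and 6 wk. All 4 tested members were called between these classes, against 22.2% of all genes, and Gja5 was higher by 4.04 ± 0.56 on the log2 scale (edgeR, adjusted p = 6.26e-06). DESeq2 gave adjusted p of 0.357 and 0.320 in these comparisons, so that the calls of Gja5 rest on edgeR. Gja5 could pass the low-count filter only through its counts in blood endothelial-like cells, so the direction of these calls was set beforehand. Cells with Gja5 were mostly cells with Gja4. Of the 45 blood endothelial-like cells with Gja5, 40 also had Gja4, and Gja5 was found in 24.1% of cells with Gja4 and 0.916% of the rest. The arterial genes were 4.54-fold higher in cells with Gja5, with ratios by library of 4.05, 4.91, 1.25, 4.96 and 3.96, of which the 4 wk ratio had an interval of 0.779 to 1.92. The venous genes stood at 0.180 times the level, or 0.355 times without the 5 wk library, and at 0.750 times (0.459 to 1.16) at 6 wk. From 2 to 6 wk these ratios rest on 9, 2, 2, 22 and 10 cells with Gja5. Cells with Gja5 had a median of 12674 UMIs and those without it 8653. The part of depth in these ratios and in the joint detection with Gja4 was not tested.

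Gjc1 was highest in pericyte-like cells. This class held 4368 CPM of the 6 pericyte markers and 4148 CPM of the 5 smooth muscle markers, which summed to 10966 CPM in smooth muscle-like cells. Pericytes were not told apart from other mural cells in it. Pericyte-like cells held 468, 480.0, 450.3, 538 and 558 CPM from 2 to 6 wk. Stromal-like cells, the next class, held 56.0, 57.7, 51.7, 50.9 and 53.0 CPM, and smooth muscle-like cells 49.0, 53.3, 51.2, 49.2 and 47.6 CPM. Each pericyte-like value was far above every value of any other class.

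Pericyte-like over stromal-like cells differed by 3.1 on the log2 scale (edgeR, adjusted p = 2.18e-16, with 16.6% of all genes called). Against smooth muscle-like cells, the other contractile class, all 4 tested members were called, where 19.9% of all genes were called. Gjc1 was higher in pericyte-like cells by 3.12 ± 0.20 (log2, edgeR adjusted p = 3.00e-16) and Gja4 was higher as well, while Gja1 was lower (-1.43 ± 0.24, edgeR adjusted p = 5.80e-06). Gja4 in smooth muscle-like cells was at 0 in some libraries, so its fitted difference is not given. Its direction was largely set beforehand, since Gja4 passed the low-count filter mainly through vessel cells. Gja5 rested on 6 UMIs there and lost its call in DESeq2 (adjusted p = 0.252). Between smooth muscle-like and stromal-like cells no member was called by edgeR or DESeq2, against 12.9% of all genes in edgeR, and 2 of 4 had an unadjusted p under 0.05.

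The other classes lay lower in Gjc1. Lymphatic endothelial-like cells held 53.6 ± 30.6 CPM and blood endothelial-like cells 41.1 ± 11.4 CPM (SD, n = 5). The 6 pericyte markers summed to 26.2 CPM in blood endothelial-like cells and 4368 CPM in pericyte-like cells. Granulosa-like, theca-like and surface epithelial-like cells held 18.2 ± 4.17, 18.0 ± 6.84 and 17.6 ± 8.46 CPM, and hematopoietic-like cells 5.75 ± 2.83 CPM. Neighbours in this order that differed by a call were pericyte-like over stromal-like cells, blood endothelial-like over granulosa-like cells (1.03, edgeR adjusted p = 0.000159, 33.1% of genes called) and surface epithelial-like over hematopoietic-like cells (1.43, edgeR adjusted p = 0.00636, 32.1% of genes called). Thinned to 3000 UMIs, Gjc1 was found in 71.1% of pericyte-like, 14.8% of stromal-like and 1.62% of hematopoietic-like cells, and unthinned in 82.2%, 40.1% and 4.63%.

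Theca-like and granulosa-like cells both held less Gjc1 than stromal-like cells, with differences of -1.71 ± 0.21 and -1.70 ± 0.19 (log2, edgeR adjusted p = 9.99e-09 and 2.85e-10). Within the mesenchyme the steroidogenic theca group held 28.0, 21.7, 18.5, 6.28 and 25.3 CPM. The mean of the other groups lay above each of these values in all 5 libraries. The difference was -1.60 ± 0.13 (log2, edgeR adjusted p = 3.60e-14, where 19.5% of all genes were called). Early theca held 42.7 ± 4.32 CPM (SD, n = 5), higher than steroidogenic theca by 1.32 (edgeR, adjusted p = 4.01e-09, 16.2% of genes called). The 5 wk library gave the lowest theca value, 0.266 times (0.187 to 0.380) that at 2 wk in theca-like cells, and without that library the difference of the steroidogenic group was -1.27. Of the 2 steroidogenic clusters, that led by Cyp11a1 and Cyp17a1 held 7.71 CPM (6.44 to 9.16) and that led by Cpa1 and Sct 26.1 CPM (23.0 to 29.5). Gja1 stood the other way, at 424 and 307 CPM.

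Dividing cells of the mesenchyme held more Gjc1 than the mean of the other mesenchymal groups. There S phase cells held 69.9, 78.4, 77.0, 71.0 and 69.2 CPM and mitotic cells 75.9, 79.5, 67.6, 63.3 and 62.5 CPM. Their differences from that mean were 0.64 and 0.52 on the log2 scale (edgeR, adjusted p = 5.17e-06 and 3.02e-05), both under 2-fold. Against the Hoxd9 group, the next in level, mitotic cells differed by 0.15 (edgeR, adjusted p = 0.371). In the follicle S phase cells held 54.0, 38.9, 32.9, 25.3 and 23.4 CPM, above mitotic cells by 0.78 (edgeR, adjusted p = 0.000134). The primary group was lowest, with 11.0, 10.3, 9.87, 4.62 and 4.23 CPM, against 23.7, 14.3, 22.5, 13.4 and 15.1 CPM in the secondary group. These ranges did not overlap, and the difference was 1.22 ± 0.15 (log2, edgeR adjusted p = 1.31e-07). By cluster, Gjc1 was 8.33 and 9.50 CPM in the primary clusters, 11.5 CPM in the secondary cluster with primary markers and 22.4 and 20.8 CPM in the secondary clusters led by DNA replication genes.

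Gjc3 was found mainly in granulosa-like cells of the older libraries, with 978 of its 1110 UMIs in this class. Granulosa-like cells held 0.420, 1.03, 5.20, 3.51 and 4.91 CPM from 2 to 6 wk, from 23, 49, 378, 163 and 365 UMIs. No other named class exceeded 1.73 CPM. Over 2 wk the level was 2.45-fold (1.47 to 4.22) at 3 wk, 12.4-fold (8.12 to 19.8) at 4 wk, 8.35-fold (5.38 to 13.6) at 5 wk and 11.7-fold (7.67 to 18.7) at 6 wk. The 3 libraries from 4 wk on thus lay above both younger ones, and the step from 3 to 4 wk fell within 1 version of Cell Ranger.

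By stage Gjc3 was highest in the antral and remodeling groups. The antral group held 0.840, 2.78, 7.81, 5.97 and 7.53 CPM, from 4, 19, 124, 53 and 118 UMIs. The remodeling group held 0, 2.27, 7.76, 5.00 and 11.0 CPM, from 0, 2, 116, 55 and 140 UMIs. In the secondary group the values were 0.550, 0.649, 2.13, 0.928 and 1.74 CPM.

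Antral exceeded secondary in 5 of 5 libraries, by 2.03 ± 0.29 (log2, edgeR adjusted p = 3.04e-06), and 2 of the 4 tested members were called there against 7.97% of all genes. Remodeling exceeded secondary in 4 of 5 libraries, with a fitted difference of 2.11 ± 0.31 (edgeR, adjusted p = 9.02e-07). In this comparison 2 of the 4 members were called, against 16.6% of all genes. Remodeling over antral gave 0.08 (adjusted p = 0.860 by edgeR). Antral over mitotic gave 1.08 (edgeR, adjusted p = 0.00371, 8.41% of genes called). Secondary over primary gave 2.03 ± 0.52 (edgeR, adjusted p = 0.00211), a call that was lost without the pairing by library (2.23, adjusted p = 0.0566) and when libraries were merged without integration (0.85, adjusted p = 0.47).

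By cluster Gjc3 was 0.158 and 0.320 CPM in the primary and 0.368, 0.977 and 1.66 CPM in the secondary clusters. Within the antral group, a name of clusters and not of follicles seen at 2 wk, the level of Gjc3 was 9.30-fold (3.54 to 34.6) that of 2 wk at 4 wk. It was 7.11-fold at 5 wk and 8.96-fold at 6 wk. In the secondary group the ratios were 3.87-, 1.69- and 3.16-fold. Among clusters Gjc3 peaked in the remodeling cluster led by Adamts5, Ghr and Lox, with 14.3 CPM (12.3 to 16.4) and a UMI in 14.9% of its cells. The other remodeling cluster held 4.59 CPM, the antral clusters 9.63 (led by Vpreb3) and 2.35 CPM (led by Inhba), and the unnamed cluster with Ntng1 11.4 CPM. The antral cluster with less Gjc3 was the one with more Gja1. Thinned to 3000 UMIs, Gjc3 was found in 2.48% of remodeling, 1.89% of antral, 0.408% of secondary and 0 of 371 hematopoietic-like cells, and unthinned in 8.75%, 8.12%, 1.72% and 0.402%. The median depths were 12512, 14908, 16961 and 6619 UMIs.

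**Figure D5:**
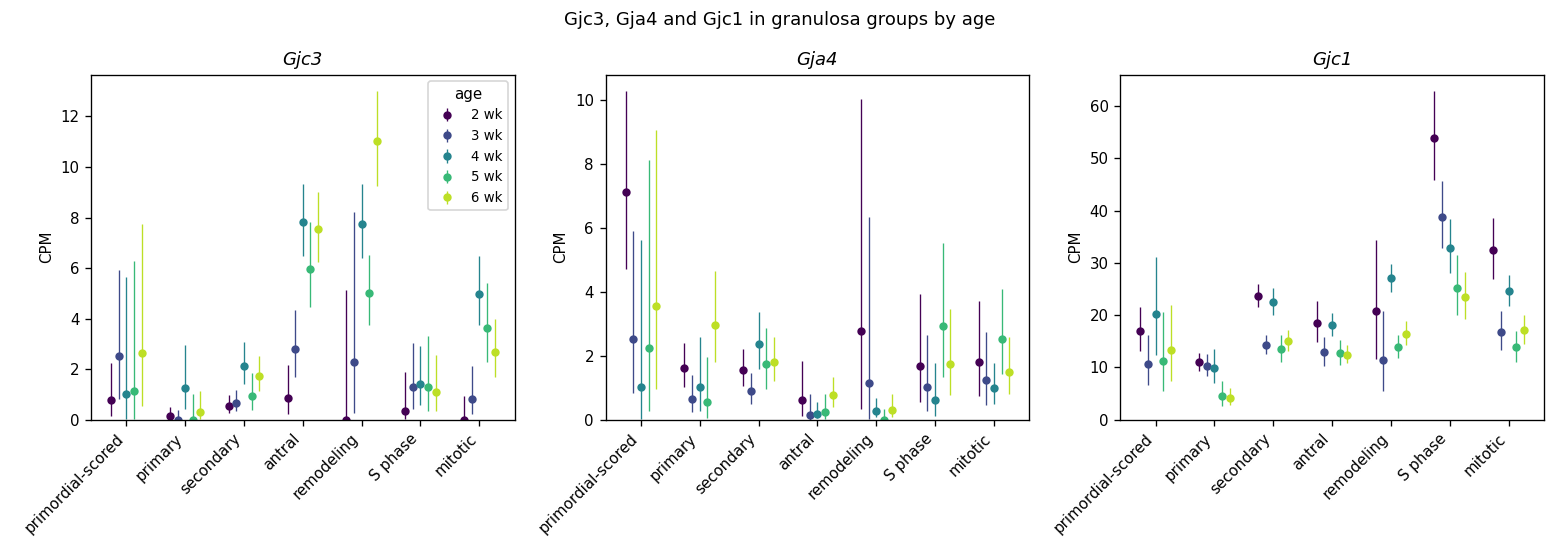
Levels of Gjc1, Gjc3 and Gja4 (CPM) in the granulosa groups, with 1 point per library and lines for the 95% counting interval. Gjc3 reaches 11.0 CPM in the remodeling group, and the highest Gja4 value is that of the group scored as primordial at 2 wk, 7.11 CPM.

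Gja4 was low in granulosa-like cells, at 1.97, 0.862, 1.18, 1.23 and 1.92 CPM. It was still above stromal-like cells, which held 0.297 to 0.746 CPM, without overlap (1.32 ± 0.29 log2, edgeR adjusted p = 0.000163). Among stages the group scored as primordial had the highest mean, with 7.11, 2.53, 1.01, 2.25 and 3.54 CPM from 28, 5, 1, 2 and 4 UMIs. At 4 wk the secondary group was higher (2.36 CPM), and at 5 wk S phase and mitotic cells were (2.92 and 2.51 CPM). The antral group held 0.630, 0.146, 0.189, 0.225 and 0.766 CPM, below the secondary group in all 5 libraries.

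The antral and secondary ranges did not overlap, and the difference was -2.01 ± 0.45 (log2, edgeR adjusted p = 0.00073), a call that was lost when libraries were merged without integration (-1.25, adjusted p = 0.151). In the remodeling group Gja4 was lower than in the secondary group by the fit (-2.55 ± 0.53, edgeR adjusted p = 0.000151), although only in 3 of 5 libraries. By cluster Gja4 was 0.860, 1.91 and 2.21 CPM in the secondary, 0.186 and 0.637 CPM in the antral and 0.226 and 0.296 CPM in the remodeling clusters. Between the primary group and that scored as primordial 2 of 4 members were called, against 10.8% of all genes. Gja4 differed by -1.46 ± 0.47 (edgeR, adjusted p = 0.0145) and Gjc3 by -2.62 ± 0.74 (edgeR, adjusted p = 0.0063). Without the 2 wk library Gja4 there gave -0.92 (adjusted p = 0.338) and without 3 wk -1.38 (adjusted p = 0.063), and Gjc3 without 3 wk gave -1.93 (adjusted p = 0.0883), so that these calls each rested on 1 or 2 libraries.

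Gja4 is an oocyte connexin, and a few cells with oocyte genes were present. Of all cells 19 had UMIs of at least 3 of 5 germ cell genes, and 13 of these had Gja4, with 340 UMIs or 331 CPM (296.5 to 368). By library these were 64, 14, 2, 232 and 28 UMIs from 2 to 6 wk, so that 2 cells of the 5 wk library held most of them and 108 UMIs were left without it. The pooled Gja4 level was 4.48 CPM in the group scored as primordial (2.41 CPM without the 2 wk library), 1.61 in secondary, 1.43 in primary, 0.404 in antral (0.248 without the 6 wk library) and 0.273 in remodeling cells. The germ cell genes summed to 1.68, 1.37, 1.09, 1.98 and 1.37 CPM in the same groups. Free oocyte RNA and expression by granulosa cells were not separated, and the part of either was not tested.

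Gjb2 was close to absent, with 77 UMIs in all. Hematopoietic-like cells held 5 of them, pericyte-like cells 6 and granulosa-like cells 26, and the blood and lymphatic endothelial-like cells 0. The 19 cells with germ cell genes held 16, in 3 cells, which is 15.6 CPM. No named class showed Gjb2 in every library apart from granulosa-like cells, and at this depth no order of the classes was detectable.

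Of the pannexins, which form channels of a similar build, Panx1 was tested. Pooled over libraries it was highest in granulosa-like cells, at 18.8 CPM. It was higher in blood than in lymphatic endothelial-like cells (1.64, edgeR adjusted p = 0.0174), where the lymphatic side rested on 10 UMIs. It was also higher in pericyte-like than in smooth muscle-like cells (1.18, edgeR adjusted p = 0.000415), and the other class comparisons gave no call. Panx2 and Panx3 were too low to be tested. Of 12 partners of gap junctions, 11 could be tested between classes. From stromal-like to granulosa-like cells, where Gja1 was higher, 1 partner rose and 1 fell, with a median log2 difference of 0.12 against 0.05 over all genes, of which 29.5% were called in either direction. The riser was Cdh2, the cadherin of granulosa cell contacts (4.27 ± 0.25, edgeR adjusted p = 2.72e-18), and Cav1, the main protein of caveolae, fell (-1.46, edgeR adjusted p = 5.54e-05).

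In the remodeling group 3 of 10 tested partners were higher than in the secondary group, against 16.6% of all genes called, with a median of 0.25 against -0.02 over all genes. These were Cav1 (4.28), Cnst (1.45), which aids connexin transport to the membrane, and the actin-binding Dbn1 (2.01). In surface epithelial-like over granulosa-like cells 4 of 11 rose, against 28.8% of all genes called, with a median of 0.17 against -0.07. Among them were Cav1 (4.51) and the epithelial cadherin Cdh1, which was at 0 UMIs in granulosa-like cells at 3 and 6 wk. Cdh1 passed the low-count filter only through surface epithelial-like and rete ovarii-like cells. The direction of its rise, which is counted among the 4, was thus largely set beforehand. Between smooth muscle-like and stromal-like cells 4 of 11 rose (12.9% of all genes called), with a median of 0.46 against -0.04, and between theca-like and stromal-like cells 1 rose and 2 fell (20.8% of all genes called, median -0.10 against -0.02). Pericyte-like over smooth muscle-like cells gave 1 up and 1 down (19.9% of all genes called), and blood endothelial-like over pericyte-like cells 3 up, among them Tjp1 and Ctnnb1 of the junctional plaque, and 2 down (22.2% of all genes called). From lymphatic to blood endothelial-like cells 4 of the 8 arterial genes rose and none fell (13.2% of all genes called), with a median of 1.27 against 0.05.

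As a description, the genes most like each member were taken over 23 cell groups by Pearson's r of log2(CPM + 1) among 14981 genes. The groups share libraries and depth, so no p is given. Gja1 was most like Gatad2b (r = 0.913), Pcca (0.898) and Cog5 (0.897), and Gja4 most like Bcr (0.941), Rnf152 (0.925) and Snrk (0.923). Gja5 was most like Lhx6 (0.974), Gm11730 (0.970) and Syt15 (0.970). Gjc1 was most like Map3k20 (0.886), Notch3 (0.857) and Cspg4 (0.853), the last 2 of which are pericyte markers used for the names. Gjc3 was most like Tdgf1 (0.952), Rims1 (0.934) and Gm42303 (0.933), and Gjb2, on 77 UMIs, most like Csk (0.880), Adap1 (0.863) and Tspan33 (0.855).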

How the data were processed

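The authors dissociated ovaries with trypsin, sorted live cells, prepared 10x Genomics 3′ v3.1 libraries and counted reads with Cell Ranger on mm10 (3.1.0 for 2, 3 and 4 wk, 6.0.1 for 5 and 6 wk, per the file headers). The deposited values are raw UMI counts per gene and cell.

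All 48163 cells were kept. Scrublet in scanpy 1.11.5 called 162 to 555 doublets per library, left out in an alternative. Libraries were integrated in Seurat 5.3.0 (R 4.3.3) on 2000 variable genes, of which the 6 connexins were removed, and the first 30 principal components entered a clustering with resolution 1. Clusters were named by marker lists. Some granulosa clusters were named by a match (r of at least 0.7) to the study's cluster means, which took precedence over the markers.

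UMIs were summed per library and cell group (at least 10 cells) and compared with edgeR 4.0.16 (TMM, quasi-likelihood, library as a term, Benjamini-Hochberg over all genes). The library pairs the groups, since all groups of a library come from 1 cell suspension. DESeq2 1.42.0 was an alternative. Levels and ratios in single libraries carry exact 95% intervals, and 3 counts were the floor for 0. The pipeline was tested on simulated data.

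The named genes were the 6 connexins, other connexins with at least 100 UMIs, fixed lists of pannexins, partners, arterial and venous genes, and for likeness the 3 genes with the highest r among those with at least 200 UMIs. The members, lists and tests were chosen with earlier results of these data known. Results for a few genes are left out here.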

Additional observations from a re-analysis of the deposited data

Results flagged for a closer look

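In 8 comparisons the ratio between cell groups lay above 1 at 1 age and below 1 at another, with both counting intervals clear of 1. The difference between the ages was not tested, since each age is 1 library, and each pair gives the highest and the lowest ratio.

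Gja4 in blood over lymphatic endothelial-like cells was 1.37 at 2 wk and 0.613 at 6 wk. Gja1 in the primary group over that scored as primordial was 1.28 at 2 wk and 0.656 at 5 wk. Gja1 in the remodeling over the secondary group was 1.5 at 2 wk, with 70 remodeling cells, and 0.817 at 4 wk.

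The other 5 concern Gja1 in a mesenchymal group over the mean of the other named mesenchymal groups. Their intervals cover the counting error of the first group only. The Cd24a group stood at 1.08 at 5 wk and 0.63 at 2 wk, and the Col14a1 group at 1.35 at 5 wk and 0.544 at 2 wk. The Cxcl12 group stood at 1.10 at 6 wk and 0.880 at 2 wk, and the Hoxd9 group at 1.32 at 5 wk and 0.858 at 6 wk. Contractile cells stood at 1.53 at 3 wk and 0.956 at 5 wk.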

How the results depend on the processing

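Of 39 differences with an adjusted p under 0.05, 26 kept their direction and stayed a call or no call in every alternative that gave a value. For a difference under 2-fold, an adjusted p that rose above 0.05 was not counted as a change. Leaving out 1 library gave 15 to 17 calls between classes, 7 to 9 between granulosa groups and 1 to 2 in the mesenchyme, where 15, 9 and 1 were reported. With no fold limit the granulosa groups gave 14 calls in 24 tests and the mesenchyme 10 in 20. By that rule 30.5% to 56.6% of all genes were called in the granulosa comparisons and 23.8% to 62.1% in the mesenchymal ones. The mesenchyme gave 4 calls with no low-count filter, 2 with doublet calls left out and 2 with libraries merged without integration. Merging reversed Gja1 in the Col11a1 group (-0.15) and in mesenchymal S phase cells (0.08), and gave 1.08 for Gja1 in the antral group at 5 wk over 2 wk, with 16 cells at 2 wk. The merged clustering had no mitotic mesenchymal group. Without the replicate block, the pairing by library, 16, 6 and 1 calls were made, and DESeq2 made 14, 9 and 1. The cause of these changes was not tested. Leaving each library out of pooled ratios and levels was added after seeing the data. Depth limits Gja5, Gjc3 and Gjb2 most, since many of their library values rest on under 10 UMIs, and ages have no replicate.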

Other observations

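2 values were chosen after they had been seen. Gjb5, with 72 UMIs in all, had 49 of them in surface epithelial-like cells, at 18.1, 35.8, 16.9, 6.96 and 1.90 CPM from 2 to 6 wk. Granulosa-like cells had 2 UMIs. Gjb5 passed the low-count filter only through surface epithelial-like cells, so the direction of its test over granulosa-like cells was set beforehand. No p is given for it. An unnamed mesenchymal cluster of 79 cells, with a median of 1707 UMIs, held 7 UMIs of Gjc3 in 6 cells, or 42.9 CPM (17.2 to 88.3), against 0.0896 CPM in the other mesenchymal cells. The cluster was picked as the mesenchymal cluster with the highest level of the glial factor Sox10, so its Sox10 level follows from that choice. Sox10 had 10 UMIs in 5 of its 79 cells and 8 UMIs in the other mesenchymal cells. Its 26 cells from 3 wk had 0 UMIs of Sox10. Whether the cells of this cluster are glia was not tested.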
